A study of Capra hircus with 3 samples.

Results

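The secreted and membrane arm of the WNT pathway was followed by cell class through 3 droplet single-cell RNA libraries of the fetal gonad of the goat (Capra hircus). Its genes were all those whose symbol begins with WNT, FZD, LGR, RSPO, SFRP or DKK followed by a digit, which gave 42 of the 27271 features counted: 19 WNT ligands, 9 Frizzled (FZD) receptors, 3 LGR receptors, 4 R-spondins (RSPO), 4 secreted Frizzled-related proteins (SFRP) and 3 Dickkopf proteins (DKK). Each library carries its embryonic day as its name (E85, E105 or E125), is labelled as male and as testis, and is the only one of its stage, and neither a genotype nor a treatment is given. Whole dissociated tissue was loaded without a sort, and how many fetuses went into a library is not given. By its title the series is concerned with how male germ cells leave the mitotic cycle in prenatal life, and comparing stages asks how germ cells and the cells around them differ over this window.

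WNT ligands are lipid-modified secreted proteins that bind Frizzled receptors, with LRP5 or LRP6 as co-receptors when the signal runs through beta-catenin, and with ROR or RYK when it does not. R-spondins bind LGR receptors and keep Frizzled proteins at the cell surface, whereas Dickkopf proteins block the LRP co-receptors and secreted Frizzled-related proteins bind WNTs outside the cell. In the mammalian gonad WNT4 and RSPO1 are known for promoting the ovarian fate, and WNT5A is known as a mesenchymal ligand that acts mostly without beta-catenin.

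The deposited filtered matrices held 7478, 8520 and 8346 barcodes with 45339231, 40741902 and 49692252 UMIs (unique molecular identifiers, each standing for 1 captured RNA molecule) for E85, E105 and E125. Pairs of libraries shared 9 to 14 barcodes. Cells were put into classes by marker genes, none of which is a WNT gene, and a class is called "-like" because it rests on RNA alone. The library labelled E125 went against its label. Over all barcodes AMH, a Sertoli hormone, stood at 1365, 3690.2 and 31.1 CPM (UMIs per 1000000 UMIs counted) in E85, E105 and E125, SOX9 at 217, 178 and 24.5 CPM, and FST, a granulosa-lineage gene, at 4.81, 2.50 and 238 CPM, while FOXL2 had no feature. Sertoli-like cells numbered 2602, 2105 and 38 and germ-like cells 190, 65 and 2, and the library labelled E125 held instead 551 pregranulosa-like cells, 113 oocyte-like cells led by FIGLA and ZP3, and an unnamed cluster of 216 cells led by ERICH3, NMB, KRT7 and CITED1. Its 38 Sertoli-like cells had FST at 2292 CPM, against 1376 CPM in pregranulosa-like cells, and SOX9 at 32.7 CPM. Only 3 of their 9 Sertoli markers stood at least 2 times higher than in the other classes. Of these cells 76.3% lay in a cluster led by FST, so their name rests on the gate alone. In the classes compared below, 8 of 9 Sertoli markers, 6 of 9 pregranulosa markers and every endothelial, stromal, mural, germ and oocyte marker with UMIs stood at least 2 times higher than in the other classes of the same library. Any difference between the library labelled E125 and the others therefore joins stage, library and these contents, which cannot be told apart.

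With 1 library per stage no test of stages is possible. A level below is the CPM of the UMIs summed over the cells of a class in 1 library, with its exact 95% Poisson interval in parentheses, and a ratio of 2 levels carries an exact 95% interval from the binomial split of the 2 sums. Both cover counting error only. A gene was counted as measured in a comparison with at least 20 UMIs over both sides and as higher or lower from a ratio of 2 upward or 0.5 downward, in classes of at least 50 cells. The kit counts the 3′ ends of transcripts, so levels are compared for 1 gene between cells and never between genes.

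Of the 42 genes, 22 had at least 20 UMIs in at least 1 class of 50 or more cells in 1 library: WNT2B, WNT3, WNT4, WNT5A, WNT5B, WNT6, WNT7A, WNT10A and WNT11, FZD3, FZD4, FZD6, FZD7 and FZD10, LGR4, RSPO2 and RSPO3, SFRP1 and SFRP2, and DKK1, DKK2 and DKK3. Without the library labelled E125 that number was 17. The other 20 stayed below, and 14 of these had under 20 UMIs in all libraries together. WNT8A had none. LGR5, the stem-cell R-spondin receptor, had 143 UMIs over all barcodes, LGR6 had 51 and WNT7B had 50. FZD1 and FZD8 had 41 each and FZD9 had 22. RSPO1, the ovary-determining R-spondin, had 12 UMIs, all of them in the library labelled E125 and too few to be placed in a class. WNT1, WNT2, WNT3A, WNT8B, WNT9A, WNT9B, WNT10B, WNT16, FZD5, RSPO4, SFRP4 and SFRP5 had between 1 and 15.

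**Figure D1:**
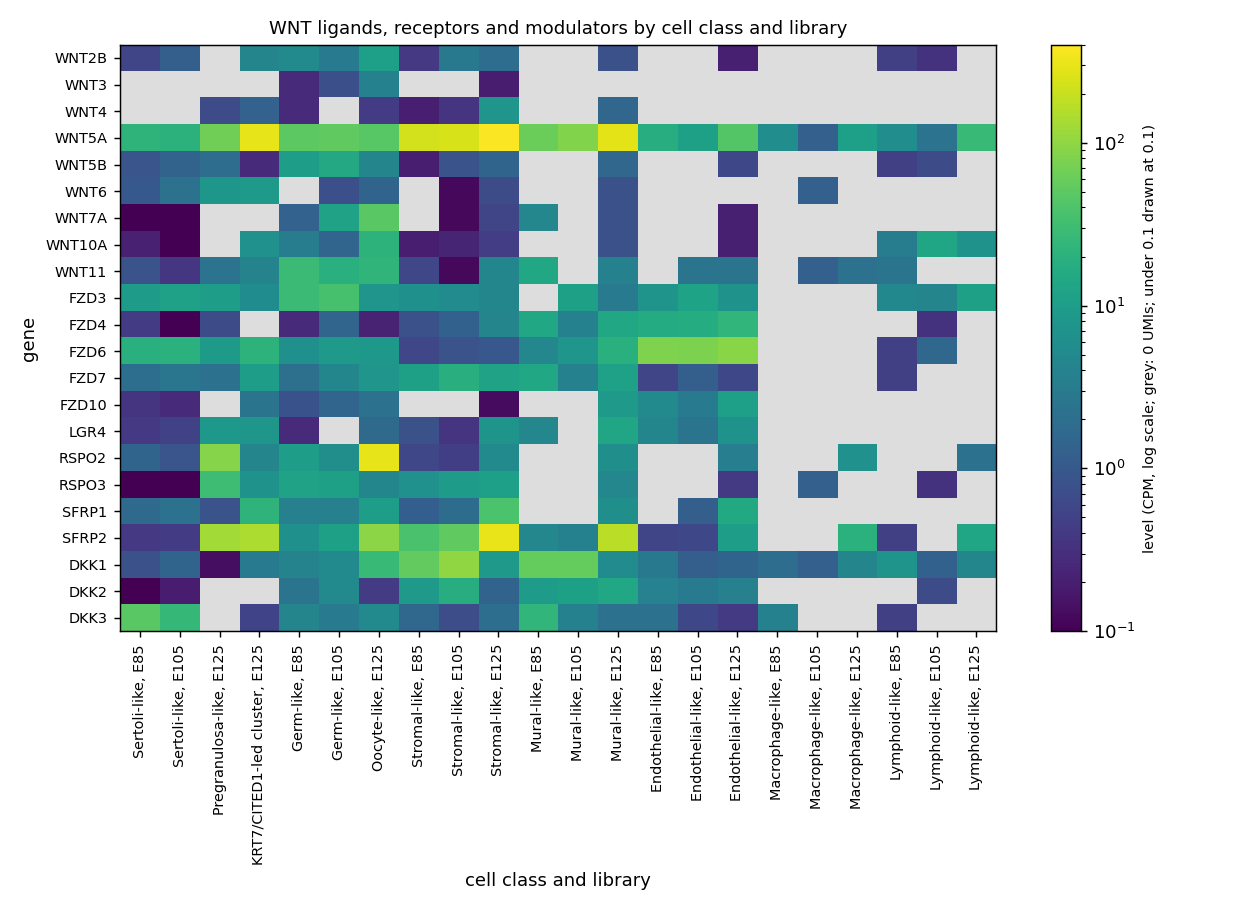
Level of the 22 genes with at least 20 UMIs in a class (rows) in each class of at least 50 cells and library (columns), as CPM on a log colour scale, with grey for 0 UMIs and colours to be compared along a row only. Within each library WNT5A and SFRP2 are brightest in the stromal-like column, and over all columns RSPO2 and WNT7A in the oocyte-like column, FZD6 in the endothelial-like columns and DKK3 in the Sertoli-like columns.

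Among the ligands, WNT5A was found in every class and its highest level was in the stromal-like cells, which hold the collagen-rich interstitium. It stood at 224 CPM (211 to 238) in E85, 243 CPM (233 to 254) in E105 and, in the library labelled E125, 380.2 CPM (371 to 390.0). E105 stood at 1.08 (1.01 to 1.17) times E85, and the level in the library labelled E125 was 1.70 (1.59 to 1.81) times that of E85, short of 2. Stromal-like cells held 55.8%, 78.0% and 69.4% of the classed WNT5A UMIs of the 3 libraries. Sertoli-like cells, the supporting cells of the testis cord, stood far below, at 22.1 CPM in E85 and 20.6 CPM in E105, a ratio of 0.934 (0.825 to 1.06) between libraries. Germ-like cells had 49.8 and 52.5 CPM and oocyte-like cells 46.1 CPM, and the 3 intervals overlap. Pregranulosa-like cells had 65.3 CPM (59.5 to 71.4), against 289.7 CPM (273 to 308) in the unnamed KRT7 and CITED1 cluster of the same library.

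Endothelial-like cells, the cells that line vessels, had 17.6 CPM of WNT5A in E85, 11.003 in E105 and 42.9 in the library labelled E125. The last was 2.44 (1.67 to 3.68) times the first, and 3.73 times with classes taken from clusters. The 11 stromal markers summed in endothelial-like cells to 3.77%, 4.04% and 7.37% of their sum in stromal-like cells, and WNT5A to 7.85%, 4.53% and 11.3% of its stromal level. COL6A3 was the stromal marker at 0 in endothelial-like cells of E85 and E105, and none was at 0 in the library labelled E125. The part of RNA from stromal cells in these WNT5A values was not tested.

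WNT7A, a ligand best known from limb and reproductive-tract patterning, was highest in the germ line in E105 and in the library labelled E125. It stood at 1.34 CPM (0.435 to 3.13) in germ-like cells of E85 on 5 UMIs, at 11.99 CPM (6.85 to 19.5) in those of E105 on 16 UMIs, and at 47.7 CPM (43.3 to 52.4) in oocyte-like cells. The 3 intervals do not overlap. The ratio of E105 to E85 in germ-like cells was 8.95 (3.13 to 31.2). Oocyte-like cells held 97.5% of the classed WNT7A UMIs of their library. Pregranulosa-like cells, of the type known to surround oocytes, had 0 UMIs in 551 cells, which allows up to 0.414 CPM and places the oocyte-like level at least 115-fold higher than that limit, with 93.2 as the lower end of the exact interval of the ratio.

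WNT10A, a ligand known from skin and tooth, was highest in oocyte-like cells. It stood there at 21.2 CPM (18.3 to 24.4), against 3.22 CPM in germ-like cells of E85 and 1.499 CPM in those of E105 on 2 UMIs. The KRT7 and CITED1 cluster had 6.73 CPM (4.36 to 9.94) on 25 UMIs. In lymphoid-like cells it stood at 3.41 CPM (1.37 to 7.02) in E85 and 13.3 CPM (9.48 to 18.1) in E105, a ratio of 3.90 (1.73 to 10.3), and at 6.78 CPM on 3 UMIs in the library labelled E125. The lymphoid-like cells were not made up alike: the cluster of B-lineage genes led by VPREB1 and PAX5 held 35.5% of them in E85 and 14.03% in E105, and its part in the WNT10A ratio was not tested.

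WNT11, a ligand of morphogenetic movements, stood at 28.1 CPM (23.01 to 34.1) in germ-like cells of E85, 19.5 CPM (12.7 to 28.6) in those of E105 and 23.1 CPM (20.02 to 26.4) in oocyte-like cells. The germ-like intervals overlap that of the oocyte-like cells, and WNT11 was highest in the germ line in each library. Stromal-like cells had 0.593, 0.118 and 4.44 CPM. Against Sertoli-like cells of the same library the germ-like level was 34.1 (21.5 to 56.1) times higher in E85 and 52.2 (22.96 to 133) times higher in E105. WNT5B, a close relative of WNT5A, was also highest in germ-like cells, at 10.5 and 14.99 CPM, and was lower in oocyte-like cells at 4.32 CPM, 0.414 (0.258 to 0.662) times the E85 germ-like level. WNT2B stood at 5.36, 2.998 and 10.6 CPM in the same 3 classes. WNT3, with 35 UMIs in oocyte-like cells and at most 3 in any other class of at least 50 cells, stood there at 3.88 CPM.

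WNT4, a main ovarian ligand, had only 2 and 3 UMIs in E85 and E105. In the library labelled E125 it was found mainly in stromal-like cells, with 118 UMIs, 7.49 CPM (6.20 to 8.97) and 87.4% of its classed UMIs, and not in the pregranulosa-like cells, which had 0.690 CPM on 5 UMIs. The stromal ratio to E85 was 37.9 (6.67 to 1509) over a single UMI in E85. WNT6 had the reverse placing, with 8.003 CPM (6.08 to 10.3) in pregranulosa-like cells, 8.89 CPM in the KRT7 and CITED1 cluster and 0.698 CPM in stromal-like cells of that library. In Sertoli-like cells, the counterpart supporting cells, WNT6 stood at 0.969 CPM in E85 and 2.24 CPM in E105, a ratio of 2.31 (1.41 to 3.85).

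The Frizzled receptors were split between the same classes. FZD6, a receptor tied to planar polarity, had its highest level in endothelial-like cells. It stood there at 81.1 CPM (68.4 to 95.6), 78.9 CPM (65.8 to 93.7) and 90.5 CPM (82.3 to 99.3) in E85, E105 and the library labelled E125. All 3 intervals overlap. Sertoli-like cells had 19.4 and 20.2 CPM, and stromal-like cells were under 1 CPM in each library, at 0.593, 0.827 and 0.952 CPM. Of the classed FZD6 UMIs Sertoli-like cells held 75.1% in E85 and 73.1% in E105, and endothelial-like cells 19.9% and 21.8%. These shares also depend on class size. FZD4, the receptor of norrin in retinal and other vessels, stood at 16.5, 17.1 and 23.3 CPM in endothelial-like cells, again with ratios inside 2. In stromal-like cells FZD4 stood at 0.791, 1.30 and 4.38 CPM, the last 5.54 (2.07 to 20.9) times the first. That ratio ran from 3.18 with the stricter barcode filter to 11.52 with classes taken from clusters.

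FZD10, a receptor of few adult tissues, stood at 5.11, 3.06 and 10.6 CPM in endothelial-like cells of E85, E105 and the library labelled E125, and at 8.49 CPM in mural-like cells of the last. In the library labelled E125 the endothelial cluster with PROX1 and FLT4, genes of lymphatic vessels, had 35.1 CPM (18.7 to 60.1) of FZD10 in 49 cells, against 9.24 CPM (6.54 to 12.7) in the CA4 cluster of 609 cells. FZD4 was the other way round, with 0 UMIs in the PROX1 cluster, which allows 8.11 CPM, and 24.8 CPM in the CA4 cluster. E85 and E105 held 3 and 7 endothelial-like cells in the PROX1 cluster, too few for levels.

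FZD3, a receptor known from axon guidance, was highest in germ-like cells, at 28.4 CPM (23.3 to 34.4) in E85 and 35.2 CPM (25.9 to 46.8) in E105, and stood at 7.54 CPM (5.85 to 9.55) in oocyte-like cells. The oocyte-like level was 0.265 (0.193 to 0.363) times the E85 germ-like level and 0.214 (0.145 to 0.317) times the E105 one. Sertoli-like cells had 9.55 and 11.4 CPM. FZD7, a receptor of progenitor cells, stood at 11.3, 18.1 and 11.9 CPM in stromal-like cells of E85, E105 and the library labelled E125. Sertoli-like cells had 2.01 and 2.61 CPM, and held 43.8% of the classed FZD7 UMIs of E85, beside 44.5% in stromal-like cells. In the library labelled E125 it also stood at 11.6 CPM in mural-like cells, 10.2 CPM in the KRT7 and CITED1 cluster and 7.65 CPM in oocyte-like cells. No stage ratio of stromal FZD7 reached 2.

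LGR4, the R-spondin receptor with at least 20 UMIs in a class, had 31, 23 and 315 UMIs over all barcodes of E85, E105 and the library labelled E125. It stood at 0.791, 0.355 and 7.30 CPM in stromal-like cells on 4, 3 and 115 UMIs. Pregranulosa-like cells had 8.28 CPM (6.32 to 10.7) and Sertoli-like cells 0.395 and 0.513 CPM. Its level in oocyte-like cells, where RSPO2 was highest, was 1.77 CPM.

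Of the R-spondins, RSPO2 had its highest level in oocyte-like cells, at 298 CPM (286 to 309) on 2685 UMIs, 77.4% of the classed RSPO2 UMIs of that library. Germ-like cells stood at 10.2 CPM (7.21 to 13.98) in E85 and 5.996 CPM (2.59 to 11.8) in E105. The oocyte-like level was 29.2 (21.2 to 41.4) times the first and 49.6 (25.2 to 115) times the second. Pregranulosa-like cells had 88.0 CPM (81.3 to 95.1), whereas the KRT7 and CITED1 cluster had 4.31 CPM (2.46 to 6.997) and stromal-like cells 5.27 CPM (4.20 to 6.53). Set against the oocyte-like level, RSPO2 reached 29.6% in pregranulosa-like and 1.77% in stromal-like cells, while the 11 oocyte markers summed to 2.05% and 1.70% of their oocyte-like sum. GDF9 and BMP15 were at 0 in pregranulosa-like cells, and OOSP2 was at 0 in these, in stromal-like and in oocyte-like cells. In oocyte-like cells GDF9 stood at only 3.55 CPM on 32 UMIs and BMP15 at 37.3 CPM on 337 UMIs. As 0 UMIs allow up to 0.414 CPM in pregranulosa-like cells, the zeros of GDF9 and OOSP2 cannot show whether a small share is present. In stromal-like cells RSPO2 thus stood near the share that the summed oocyte markers reached there, and in pregranulosa-like cells above it. That sum joins markers of unlike shares. Over the other classes of the library UCHL1 stood at 144 CPM against 1577 CPM in oocyte-like cells, and ZP3 at 89.1 against 9655 CPM. The match in stromal-like cells therefore depends on which markers are summed. Sertoli-like cells had 1.44 and 0.886 CPM.

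RSPO3, an R-spondin of endothelium and stroma in other tissues, was placed differently. It stood at 30.8 CPM (26.9 to 35.1) in pregranulosa-like cells and 4.43 CPM in oocyte-like cells, below the germ-like levels of 11.8 and 11.2 CPM. Stromal-like cells had 6.72, 9.69 and 10.8 CPM in E85, E105 and the library labelled E125, with no ratio reaching 2. Sertoli-like cells had 2 UMIs in E85 and 1 in E105, 0.0718 and 0.0466 CPM, and endothelial-like cells had none in those libraries.

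**Figure D2:**
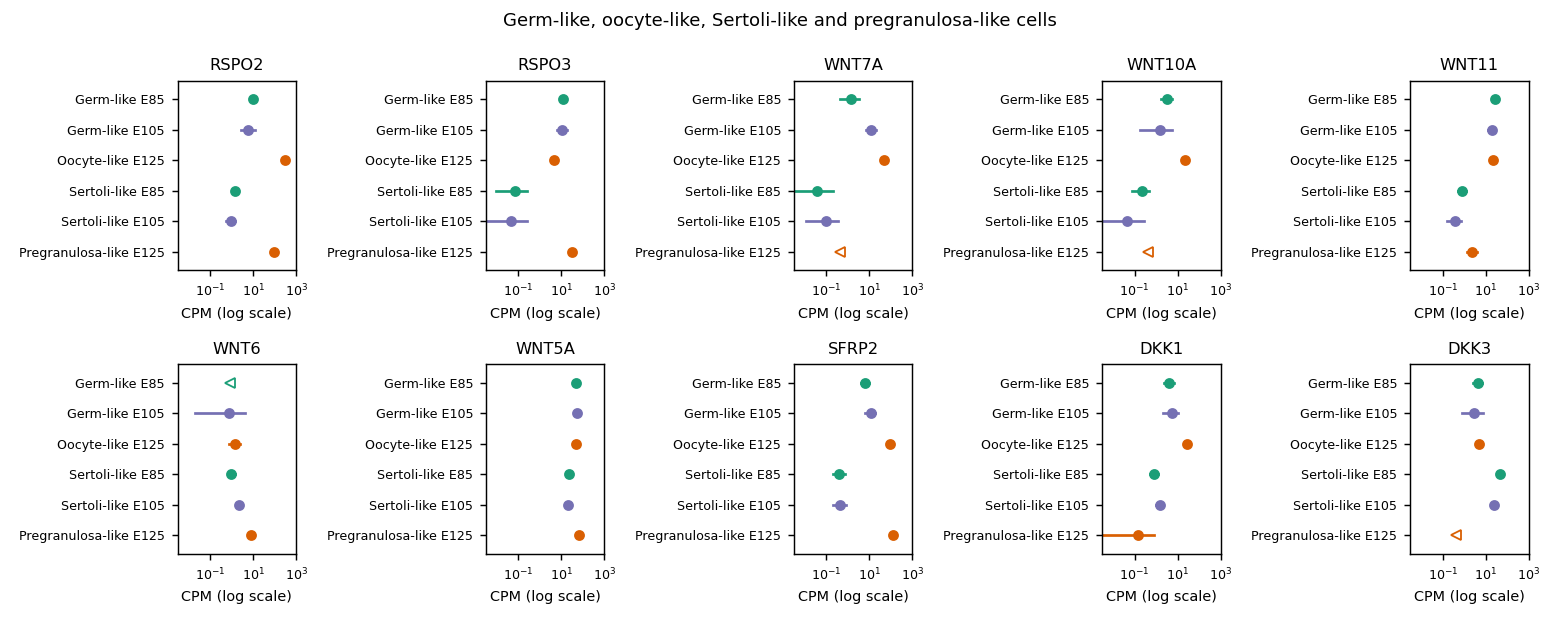
Level of 10 genes (CPM, log axis) in germ-like, oocyte-like, Sertoli-like and pregranulosa-like cells, coloured by library (green E85, purple E105, orange the library labelled E125), where points are levels, lines exact 95% Poisson intervals and open triangles the limit that 0 UMIs allows (intervals that meet the left edge run on below it). RSPO2 and WNT7A are highest in the oocyte-like row, RSPO3, SFRP2, WNT5A and WNT6 in the pregranulosa-like row and DKK3 in the Sertoli-like rows, and WNT11 lies alike in the germ-like and oocyte-like rows.

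Both secreted Frizzled-related proteins described were far higher in the stroma of the library labelled E125. SFRP2, a WNT-binding protein of fibroblasts, stood at 36.8 CPM (31.7 to 42.5) in E85, 52.1 CPM (47.4 to 57.2) in E105 and 299.5 CPM (291 to 308) in the library labelled E125, where its level was 8.14 (7.03 to 9.48) times that of E85 and 5.75 (5.21 to 6.35) times that of E105. It was also present in pregranulosa-like cells at 125.01 CPM (117 to 133) and in oocyte-like cells at 94.5 CPM (88.3 to 101), while Sertoli-like cells of E85 and E105 had 0.395 and 0.420 CPM. Stromal markers summed in pregranulosa-like and oocyte-like cells to 4.64% and 3.04% of their stromal sum, and SFRP2 to 41.7% and 31.6% of its own stromal level. In endothelial-like cells the corresponding shares were 7.37% for the markers and 3.34% for SFRP2, which stood there at 10.01 CPM.

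SFRP1, its relative and likewise a WNT-binding protein, stood at 1.19 CPM (0.435 to 2.58), 1.89 CPM (1.08 to 3.07) and 38.0 CPM (35.0 to 41.1) in stromal-like cells of E85, E105 and the library labelled E125. The last was 32.01 (14.6 to 87.6) times the first and 20.1 (12.3 to 35.4) times the second. Sertoli-like cells had 1.76 CPM of SFRP1 in E85 and 2.19 CPM in E105, and held 71.0% and 67.1% of its classed UMIs there. Endothelial-like cells had 0 and 2 UMIs of SFRP1 in E85 and E105, and in the library labelled E125 they had 15.5 CPM, at least 9.12-fold higher than the limit that 0 UMIs allow in E85, with 7.24 as the lower end of the exact interval of the ratio. That level came largely from 1 cluster: the PROX1 and FLT4 cells had 151 CPM (114 to 197) and the CA4 cells 4.62 CPM (2.78 to 7.21).

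DKK1 and DKK2 were lower in the stroma of the library labelled E125, and DKK3 was not. DKK1, a blocker of the LRP co-receptors, stood at 53.8 CPM (47.6 to 60.6) in E85, 101 CPM (94.5 to 108) in E105 and 8.76 CPM (7.36 to 10.4) in the library labelled E125. E105 was 1.88 (1.64 to 2.16) times E85, and the library labelled E125 was 0.163 (0.132 to 0.201) times E85 and 0.0866 (0.0718 to 0.104) times E105. The first ratio was 2.55 with the stricter barcode filter. DKK2, its relative, stood at 8.50, 17.4 and 1.40 CPM, with E105 2.04 (1.45 to 2.94) times E85 (1.54 with the stricter barcode filter) and the library labelled E125 0.164 (0.0936 to 0.281) times E85. In mural-like cells, the contractile cells around vessels, DKK1 stood at 56.4, 56.5 and 5.40 CPM, whereas DKK2 stood at 9.41, 11.3 and 14.7 CPM on 2, 3 and 19 UMIs. Oocyte-like cells had 27.7 CPM (24.4 to 31.4) of DKK1, 6.89 (4.10 to 12.5) times the germ-like level of E85, and pregranulosa-like cells 0.138 CPM.

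DKK3, a divergent family member whose part in WNT signalling is unsettled, was highest in Sertoli-like cells in E85 and E105. It stood there at 48.1 CPM (45.5 to 50.7) in E85 and 25.4 CPM (23.3 to 27.6) in E105, and Sertoli-like cells held 97.0% and 97.8% of its classed UMIs. The intervals do not overlap, and the ratio of E105 to E85 was 0.528 (0.477 to 0.584), just short of 0.5. Mural-like cells reached 48.9% and 14.9% of the Sertoli-like level in only 76 and 77 cells, and a share of UMIs also depends on class size. In stromal-like cells DKK3 stood at 1.58, 0.709 and 2.03 CPM on 8, 6 and 32 UMIs, the last 1.28 (0.580 to 3.23) times E85 and 2.87 (1.18 to 8.38) times E105. Pregranulosa-like cells had 0 UMIs, which allows 0.414 CPM, and oocyte-like cells 5.10 CPM.

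**Figure D3:**
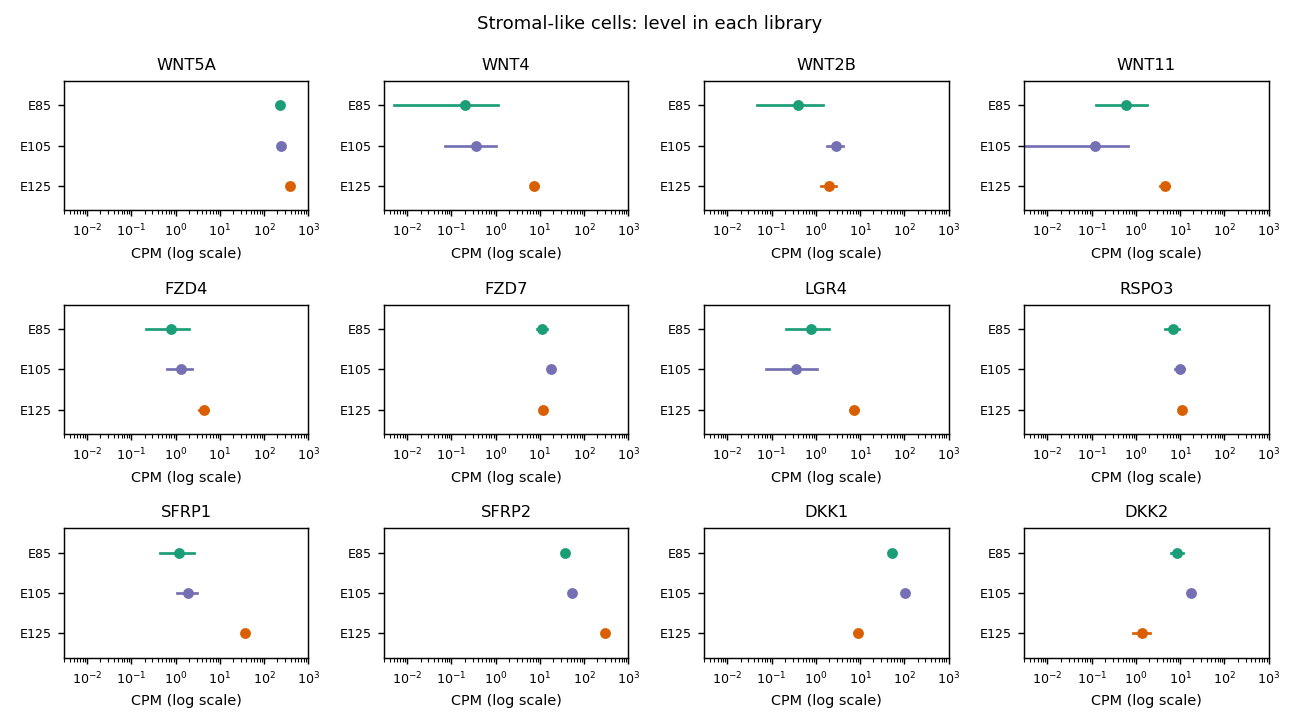
Level of 12 genes (CPM, log axis) in stromal-like cells of each library, where points are levels and lines exact 95% Poisson intervals. SFRP1, SFRP2, LGR4, WNT4, WNT11 and FZD4 lie to the right and DKK1 and DKK2 to the left in the library labelled E125, while FZD7 and RSPO3 move by less than 2 times.

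Counted over the whole set, little differed between E85 and E105. In Sertoli-like cells 15 of the 42 genes were measured, with WNT2B and WNT6 higher and WNT11 lower at E105. That is 3 of 15 where 7.73% of all measured features differed by 2 times (5.47% higher and 2.27% lower). WNT2B had a ratio of 2.11 (1.09 to 4.21) on 16 and 26 UMIs, which ran from 1.99 to 3.62 over the alternatives, and WNT11 0.452 (0.175 to 1.05) on 23 and 8. In stromal-like cells WNT2B and DKK2 of 9 measured genes were higher at E105 and none was lower, beside 8.32% of all features (6.25% higher, 2.07% lower). WNT2B there rested on 2 and 24 UMIs, with a ratio of 7.17 (1.78 to 62.6). Both counts are 1 when at least 50 UMIs are asked for. In endothelial-like cells 0 of 4 differed (background 8.07%, with 6.47% higher and 1.6% lower). In germ-like cells WNT7A of 12 was higher and none lower, beside 8.29% (5.94% higher, 2.35% lower). In lymphoid-like cells WNT10A was higher, 1 of 2, beside 9.84% (4.47% higher, 5.36% lower). In mural-like cells 0 of 2 differed, beside 9.95% (7.8% higher, 2.15% lower).

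Between the library labelled E125 and the earlier ones more genes differed, and so did more of all features. In stromal-like cells 16 genes were measured against E85 and 11 differed (background 34.8%). Of these 9 were higher, where 21.3% of all features were: WNT2B, WNT4, WNT5B, WNT11, FZD4, LGR4, RSPO2, SFRP1 and SFRP2. DKK1 and DKK2 were lower, 2 of 16 where 13.5% of all features were. Of the 9 higher, WNT2B, WNT4, WNT5B, WNT11 and RSPO2 had 3 or fewer UMIs in E85. The median log2 ratio was 2.16 against -0.05 for all features. Against E105, 10 of 18 differed (background 33.4%), 8 higher (WNT4, WNT11, FZD4, LGR4, RSPO2, SFRP1, SFRP2 and DKK3, background 17.4%) and DKK1 and DKK2 lower (background 16.1%), with a median log2 ratio of 0.70 against -0.12. Of the genes higher than in E105, SFRP2 had 441 UMIs there. SFRP1 had 16, FZD4 11, DKK3 6, RSPO2 4, WNT4 and LGR4 3 each and WNT11 1. These likewise reached 20 UMIs only through the library labelled E125, and both medians include such genes. The 2 contrasts share the library labelled E125. RSPO2 in stroma stood near the share of the summed oocyte markers given above, and the part of oocyte RNA in its ratio was not tested.

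In endothelial-like cells 4 of 9 were higher than in E85 (WNT5A, FZD10, SFRP1 and SFRP2, background 19.1%) and 5 of 9 higher than in E105 (with LGR4 added, background 14.1%), and none was lower (backgrounds 6.78% and 9.44%). SFRP2 had 1 UMI each in endothelial-like cells of E85 and E105, SFRP1 had 0 and 2 and FZD10 had 9 and 5. In E105 WNT5A had 18 UMIs and LGR4 had 4. All these counts lie under the 20 UMIs asked for, which were reached only through the library labelled E125. Most of these cells lay in different clusters, 89.4% and 88.1% in the VWF and PNOC cluster in E85 and E105 and 85.8% in the CA4 cluster in the library labelled E125. In mural-like cells WNT5A, FZD6 and SFRP2 of 5 were higher than in E85 and none lower (backgrounds 22.4% and 8.75%), and the same 3 of 5 higher and DKK1 lower than in E105 (backgrounds 17.1% and 11.5%). FZD6 and SFRP2 had 1 or 2 UMIs in mural-like cells of E85 and E105, and WNT5A had 13 in E85. The FZD6 ratios were 4.10 (0.672 to 168) to E85 and 2.56 (0.638 to 22.3) to E105, and both intervals include 1. Of the mural-like cells of the library labelled E125 43.8% lay in the MGP and COL12A1 stromal cluster. The 11 stromal markers summed in mural-like cells to 36.6%, 42.2% and 54.7% of their stromal sum in E85, E105 and the library labelled E125, and their part in these ratios was not tested. In the RGS5 and NTF3 mural cluster itself WNT5A stood at 23.6, 50.9 and 119 CPM and SFRP2 at 0, 0 and 22.2 CPM, in 50, 45 and 83 cells.

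The stromal-like cells were not 1 population, and the genes were divided among its clusters. A cluster led by CCN3 and SHOX2 held 76.6% of them in E85 and 22.9% in E105, and one led by PCDH8 and C7 held 189 cells in E85 and 1912 in E105. In the first, SFRP2 went from 39.2 to 18.999 CPM, a ratio of 0.485 (0.320 to 0.716). In the second it went from 63.4 to 81.7 CPM, a ratio of 1.29 (0.864 to 1.9997), and in all stromal-like cells together the ratio was 1.42 (1.19 to 1.69). DKK1 had ratios of 1.27 (0.997 to 1.61) and 1.22 (0.883 to 1.73) within the 2 clusters, against 1.88 (1.64 to 2.16) over the class, and the class ratio lay above both. DKK2 had 2.05 (1.10 to 3.79) and 1.22 (0.535 to 3.42), and WNT5A 1.15 (1.02 to 1.29) and 1.22 (0.968 to 1.55).

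In the library labelled E125 the stroma lay in other clusters, one led by CHODL with 34.0% of the cells and one led by MGP and COL12A1 with 58.2%. WNT5A stood at 101 CPM (92.6 to 109) in the CHODL cells and 591 CPM (574 to 608) in the MGP and COL12A1 cells. The first is below and the second above every E85 and E105 stromal cluster drawn in the plot of stromal clusters. SFRP2 and WNT4 were likewise higher in the MGP and COL12A1 cells, at 390.2 against 197 CPM and 11.4 against 2.64 CPM. RSPO3, SFRP1 and DKK1 were higher in the CHODL cells, at 24.96 against 2.79, 71.4 against 13.6 and 19.2 against 1.33 CPM. No pair of the intervals of the 2 clusters overlaps for these genes.

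**Figure D4:**
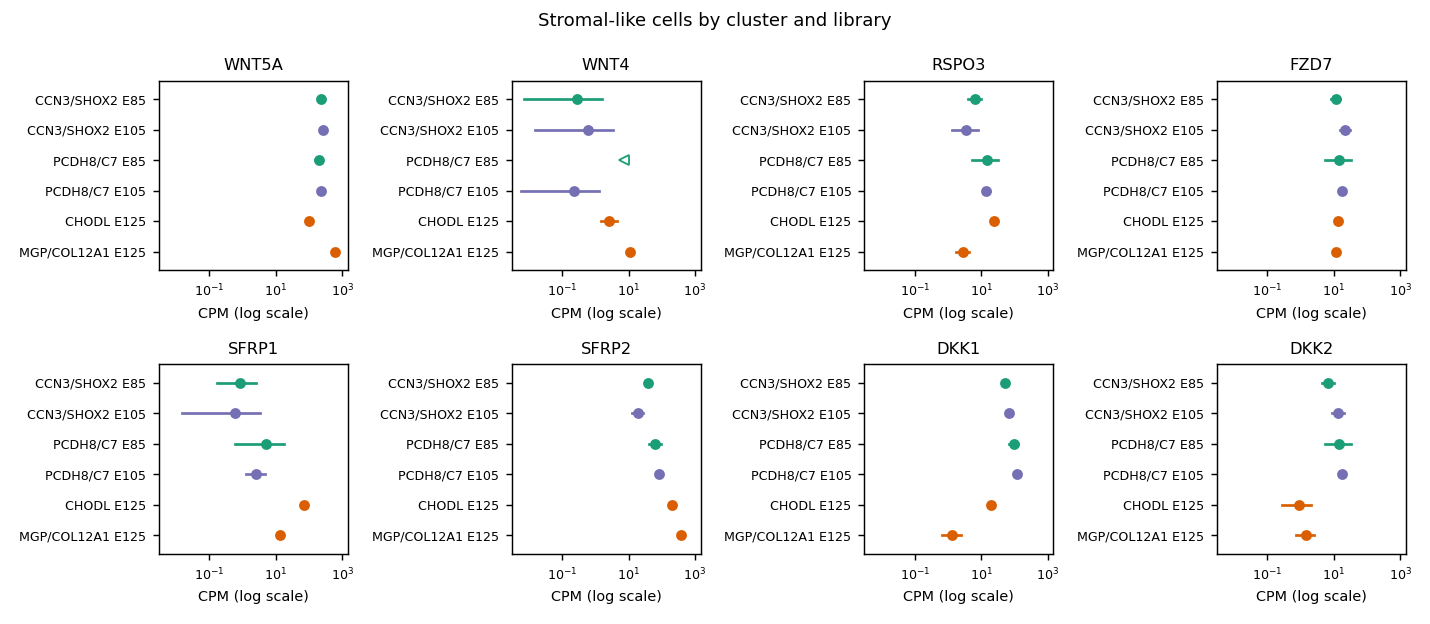
Level of 8 genes (CPM, log axis) in 4 clusters of stromal-like cells, named by leading genes, in the libraries that hold them, where points are levels, lines exact 95% Poisson intervals and the open triangle the limit that 0 UMIs allows. WNT5A, WNT4 and SFRP2 are highest in the MGP/COL12A1 row, RSPO3 and SFRP1 in the CHODL row, and DKK1 and DKK2 in rows of E85 and E105.

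Classes of 1 library were also set side by side. Stromal-like against Sertoli-like cells had 6 of 14 genes higher in E85 (background 35.5%) and 5 lower (background 12.2%). In E105 the numbers were 7 of 14 (background 35.2%) and 4 (background 11.6%). WNT5A, FZD7, RSPO3, SFRP2, DKK1 and DKK2 were higher in stromal-like cells in both libraries. WNT6, FZD6 and DKK3 were higher in Sertoli-like cells in both. WNT6 in E85 rested on 0 stromal-like against 27 Sertoli-like UMIs. That is at least 1.63-fold above the limit that 0 UMIs allow, so a difference of 2 times is not shown. FZD6 was higher still in endothelial-like cells. DKK1 was 68.1 (44.1 to 110.5) and 70.0 (48.9 to 104) times higher in stroma, and FZD6 was 0.0306 (0.00629 to 0.0899) and 0.0410 (0.0164 to 0.0851) times the Sertoli-like level. Germ-like against Sertoli-like cells had 10 of 14 higher in E85 and 8 of 13 in E105, where 47.9% and 48.5% of all features were higher, and 3 lower in each (backgrounds 15.1% and 15.9%). Endothelial-like against stromal-like cells had 2 of 9, 3 of 10 and 4 of 18 higher in E85, E105 and the library labelled E125 (backgrounds 11.2%, 11.8% and 13.2%), with FZD4 and FZD6 among them in all 3, and 6, 7 and 10 lower (backgrounds 19.1%, 20.1% and 19.3%).

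The classes that the library labelled E125 holds in place of germ-like and Sertoli-like cells were compared across libraries. Oocyte-like cells against germ-like cells of E85 had 9 of 17 genes higher (background 26%) and 3 lower (WNT5B, FZD3 and RSPO3, background 32.6%). Against germ-like cells of E105 they had 8 of 17 higher (background 24.8%) and the same 3 lower (background 35%). Both comparisons share the oocyte-like cells. Pregranulosa-like against Sertoli-like cells of E85 had 8 of 14 higher (background 28.9%) and 4 lower (background 14.4%). Against those of E105 they had 7 of 15 higher (background 25.4%) and 5 lower (background 15.5%). RSPO2 was 61.3 (44.5 to 86.6), SFRP2 317 (176 to 636) and LGR4 20.96 (10.9 to 44.2) times the E85 Sertoli-like level. Within the library labelled E125, oocyte-like against pregranulosa-like cells had 12 of 19 genes higher (background 36.9%) and 3 lower (background 24.3%). WNT7A, WNT10A, WNT11 and RSPO2 were among the higher ones, and the lower ones were WNT6, the receptor LGR4 and RSPO3.

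Outside the set, 72 further genes of WNT secretion, co-receptors, intracellular relay and targets were followed, of which 67 had a feature. In Sertoli-like cells 2 of 49 measured were higher at E105, RYK and ROR1, and 3 lower, TCF7L1, NKD1 and WIF1, beside 5.47% and 2.27% of all features. In stromal-like cells DACT1 of 49 was higher at E105 and none was lower, beside 6.25% and 2.07%. In the library labelled E125 20 of 55 stromal genes were higher than in E85 and 7 lower, where 21.3% of all features were higher and 13.5% lower, so the lower share was near that of all features. WIF1, a secreted WNT binder, stood at 55.7 against 0.395 CPM, SERPINF1, a secreted factor that binds LRP6, at 123 against 2.57 CPM and the receptor RYK at 47.2 against 5.14 CPM, library labelled E125 first. TSPAN12, the partner of FZD4 in norrin signalling, was lower at 2.48 against 71.2 CPM, as was PRICKLE1, a planar polarity protein, at 29.7 against 142 CPM. In endothelial-like cells 13 of 42 were higher than in E85 and 2 lower, beside 19.1% and 6.78% of all features. AXIN2, a feedback target of beta-catenin, stood at 41.5 against 8.51 CPM, a ratio of 4.87 (2.88 to 8.86), APCDD1, a membrane inhibitor, at 128 against 27.8 CPM, and FRZB, another secreted Frizzled-related protein, at 29.003 against 104 CPM. AXIN2 and APCDD1 were also higher than in E85 in stromal-like cells, at 36.1 against 9.89 and 106 against 18.8 CPM. In mural-like cells 12 of 31 were higher than in E85 and 1 lower, beside 22.4% and 8.75% of all features. AXIN2 stood there at 37.1 CPM against 0 UMIs, at least 2.63-fold above the limit that 0 UMIs allow, with 2.05 as the lower interval end. APCDD1 stood at 101 against 37.6 CPM, the latter on 8 UMIs, a ratio of 2.69 (1.32 to 6.36). It was not at least 2 times higher than in E105. In germ-like cells 2 of 35 were higher at E105, TLE1 and NKD1, and 2 lower, VANGL2 and TLE2, beside 5.94% and 2.35% of all features.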

How the data were processed

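Droplet 3′ RNA libraries of 3 samples, 1 per stage, were used as the authors' deposited filtered matrices of raw UMI counts per feature and barcode. The submitters' processing notes name Cell Ranger 3.1, whereas the file headers name 6.0.0. No coordinates are printed, since the build is not given in the sources used here. Features were matched by symbol.

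Barcodes with at least 1000 UMIs, 500 genes and at most 20% mitochondrial UMIs were kept (6328, 7069 and 7319). A marker was on when its share of a barcode exceeded its mean share, and a barcode joined the class with the largest fraction of markers on, with at least 2 on, or 4 for germ-like and oocyte-like cells. Likely doublets, with at least 3 markers of an unrelated class at 0.5 of its mean share, were removed: 1.41%, 1.34% and 2.86% of E85, E105 and E125. Barcodes with no gate (196, 163 and 244) were left out. Gates are cuts in a score: 2.54% and 3.37% of Sertoli-like cells of E85 and E105 and 2.18%, 1.20% and 8.03% of stromal-like cells lay at the minimum. The share was 43.5% and 29.1% in lymphoid-like and 3.16% and 1.54% in germ-like cells of E85 and E105. In mural-like cells it was 19.7%, 6.49% and 35.3%, and in endothelial-like cells 6.43%, 5.93% and 2.68%, over the 3 libraries. Pregranulosa-like cells had 14.2% and oocyte-like cells 10.6%. The median stromal-like cell held 0 UMIs of the Sertoli list in all libraries. At a median of 2035.5, 2222 and 2886 UMIs per cell this cannot show that the gate is clean. Summed over cells, the list stood at 132 and 187 CPM in stromal-like cells of E85 and E105. Leiden clusters (scanpy 1.11.5, 3000 variable genes without the WNT set, 30 components, 15 neighbours, resolution 1, no integration) served for subsets. A supporting-cell cluster with more markers of another class than of its own among its 10 leading genes was set apart unnamed.

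Genes, lists and gates were chosen with earlier results of these data known, and the gates were adjusted after seeing the data, as were the germ-like, lymphoid-like and mural-like contrasts and the comparisons of clusters. All genes of the rule are accounted for. Those with at least 20 UMIs in 1 class of at least 50 cells are described, those reaching 20 CPM are given in every library, and up to 4 pathway genes per contrast and direction could be named, by the interval bound nearest 1. AXIN2 and APCDD1 are given outside this rule in stromal-like and mural-like cells, beside their endothelial-like values. Ratio steps were tested on simulated data. Alternatives were a stricter barcode filter (2000 UMIs, 1000 genes, 10% mitochondrial), keeping likely doublets, classes by clusters, median-of-ratios scaling, a mean over cells, and at least 50 UMIs.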

Additional observations from a re-analysis of the deposited data

How the results depend on the processing

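The number of genes at least 2 times apart between E105 and E85 moved from 3 to 1 in Sertoli-like cells with at least 50 UMIs, where 10 genes are left, and in stromal-like cells from 2 to 1 with the stricter barcode filter, to 1 with median-of-ratios scaling and to 1 with at least 50 UMIs. The counts of the other 5 planned contrasts stayed within 1.5 times under all 6 alternatives. Of 478 single ratios and levels recomputed, 464 lay inside their first interval, 14 outside and 0 reversed direction, and 180 of 187 ratios past 2 times stayed past it. These totals leave out the alternative of at least 50 UMIs. They include 43 values, with 23 of the 187 ratios, from leaving out the stromal cluster named below, a choice made after seeing the data. A further 10 ratios against 0 UMIs have no value. Calls were lost by WNT2B (1.99, stricter filter) and WNT11 (0.504 with doublets kept, 0.640 as a mean over cells) in Sertoli-like cells, by DKK2 in stromal-like cells of E105 (1.54, stricter filter, and 1.96, median-of-ratios scaling), and by FZD10 in endothelial-like cells of the library labelled E125 against E85 (1.92, median-of-ratios scaling, and 1.73, mean over cells). The causes were not tested. Among alternatives chosen after seeing the data, leaving out the stromal cluster led by CCL11, COLEC11 and ACTA2, whose 10 leading genes hold more mural than stromal markers, gave 3 genes for E105 against E85 and 11 for each contrast with the library labelled E125. No paired analysis was possible because each stage has 1 library, and leaving out a replicate was not possible for the same reason. Depth limits most of the set: 14 of the 42 genes had under 20 UMIs in all libraries together.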

Other observations

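The unnamed cluster led by ERICH3, NMB, KRT7 and CITED1, found in the library labelled E125, is described here by its levels. Besides WNT5A and WNT6, it held SFRP2 at 145 CPM (133 to 158), SFRP1 at 21.8 CPM (17.3 to 27.1) and FZD6 at 21.003 CPM (16.6 to 26.2), against 0.828 CPM of SFRP1 and 9.24 CPM of FZD6 in pregranulosa-like cells. WNT10A stood there at 6.73 CPM (4.36 to 9.94) and at 0 UMIs in pregranulosa-like cells, which allows 0.414 CPM. FZD7 stood at 10.2 CPM against 2.21 CPM, and RSPO3 at 7.001 CPM against the higher pregranulosa-like level. SOST, a secreted blocker of LRP5 and LRP6, was among the 10 leading genes of the cluster. Stromal markers summed in it to 8.97% of their stromal sum, and their part in the SFRP1 and SFRP2 values was not tested.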
